A study of Mus musculus with 6 samples.

Results

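The 77 genes described here are named as genes of mitochondrial ribosomal proteins, and they are all the genes of the deposited table whose symbol is Mrpl or Mrps followed by a number and at most 1 letter. The product of 1 of them, Mrps36, is now known not as a ribosomal protein, and the gene is kept in all counts by its symbol. They are 77 of 24016 genes with a usable symbol, 48 with a large-subunit symbol (Mrpl) and 29 with a small-subunit symbol (Mrps). The study compared basal cells of the mouse esophageal epithelium, sorted by high CD29 (integrin beta-1) into GFP-positive cells, named Krt15+ (3 libraries), and GFP-negative cells, named Krt15- (3 libraries). All mice carried Krt15-CrePR1, a Cre recombinase driven by the Krt15 promoter and switched on by RU486 (mifepristone), and the R26mTomato/mGFP reporter, in which recombination turns on GFP. All received 1 mg of RU486 and were sampled 24 h later, and the labels used here give neither their age nor the number of animals behind a library. GFP marks a cell in which Cre acted and not the present level of Krt15, so cells without recombination stay in the Krt15- sort.

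Mitochondria hold their own ribosome, which translates the few proteins encoded in mitochondrial DNA, all of them membrane subunits of the respiratory chain and of ATP synthase. Its RNA comes from mitochondrial DNA, while all of its proteins are encoded in the nucleus, made in the cytosol and imported. Many of them descend from bacterial ribosomal proteins and others are found only in mitochondria. The basal cells of the esophagus divide and supply the layers above them, which mature and are shed.

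RNA levels are FPKM, the authors' estimates of fragments divided by transcript length and by the library's mapped fragments. The estimated depth was 27.6, 34.1 and 30.0 M fragments (M, mega) in Krt15+ replicates 1 to 3 and 29.0, 41.7 and 39.6 M in Krt15- replicates 1 to 3. Between 7072 and 9194 genes reached 1 FPKM in the Krt15+ libraries, against 3247, 6906 and 7934 in Krt15- replicates 1 to 3, so the Krt15- replicate 1 library stood apart at a depth like that of the others. The summed level of 9 basal keratinocyte markers was 3885 to 14115 FPKM in Krt15+ and 3933 to 11119 FPKM in Krt15- libraries, with none of the 9 at 0 in any library. Krt15 itself stood at 3349.8, 9692 and 2419.5 FPKM in Krt15+ and at 2350.2, 6784 and 3412 FPKM in Krt15- libraries. The groups thus overlapped in Krt15 RNA, and the Krt15- cells did not lack it. In Krt5 and Krt14 they overlapped as well, while Col17a1 was higher in every Krt15+ library. Markers of other cells were also present: 7 leukocyte markers summed to 0.665 to 36.5 FPKM in Krt15+ and 142 to 507 FPKM in Krt15- libraries, with 2 to 6 of them at 0 in Krt15+ and 1 to 5 in Krt15-. The 9 fibroblast markers summed to 71.3 to 179 FPKM in Krt15+ and 176 to 788 FPKM in Krt15- libraries, with 4 to 8 of them at 0 in Krt15+ and 0 to 2 in Krt15-. Dcn alone stood at 167, 176 and 71.1 FPKM in Krt15+ and at 13.9, 267 and 457 FPKM in Krt15- libraries. In Dcn, Lum and Pdgfra the groups overlapped. Col1a1, Col1a2, Col3a1, Vim, Dpt and Mfap5 were lower in every Krt15+ library than in every Krt15- library. Mfap5 stood at 0, 0 and 0.0744 FPKM in Krt15+ and at 38.8, 49.3 and 103 FPKM in Krt15- libraries. The 8 suprabasal keratinocyte markers summed to 8923 to 53038 FPKM in Krt15+ and 9229.6 to 37844 FPKM in Krt15- libraries. At most 1 of them was at 0 in a Krt15+ library, and 1 or 2 were in each Krt15- library. Krtdap alone stood at 7254, 13639.8 and 41287 FPKM in Krt15+ and at 33634, 22532 and 0 FPKM in Krt15- libraries. The part of all these other cells in the values below was not tested. In such bulk libraries fewer cells of a type and less RNA per cell cannot be told apart.

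All 77 genes passed the filter on low values, set at 1 FPKM for the average of the 6 libraries, and 50 of them reached 1 FPKM in every library. Their mean levels, which are per length and can be set side by side, ran over a 178-fold range, with a highest of 1143 FPKM, a median of 96.6 and a lowest of 6.41. Mrps21, the counterpart of a small bacterial ribosomal protein of the small subunit, was the most abundant. It stood at 906, 572 and 825 FPKM in Krt15+ replicates 1 to 3 and at 2315, 754 and 1483 FPKM in Krt15- replicates 1 to 3. The Krt15+ libraries were the closer to each other, and the groups overlapped between 754 and 906 FPKM.

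Mrpl33, another protein with a bacterial counterpart, stood at 1044, 581 and 558 FPKM in Krt15+ and 1936, 702 and 1098 FPKM in Krt15- libraries. Mrpl42, a large-subunit protein found only in mitochondrial ribosomes, stood at 1007, 655 and 887 FPKM in Krt15+ and 616, 690.4 and 1039 FPKM in Krt15- libraries. Mrpl23, which lies at the exit of the tunnel through which the new chain leaves, stood at 617, 466 and 374 FPKM in Krt15+ and 755, 577 and 788 FPKM in Krt15- libraries. In all 3 genes the groups overlapped. Together with Mrps21 and Mrpl14 these genes made up 31.1% of the summed mean level of the 77. At the low end were Mrps2, with 4.85, 16 and 0.0167 FPKM in Krt15+ and 0, 12.2 and 5.38 FPKM in Krt15- libraries, Mrps25 with a mean of 11.8 FPKM and Mrpl19 with a mean of 12.7 FPKM.

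**Figure D1:**
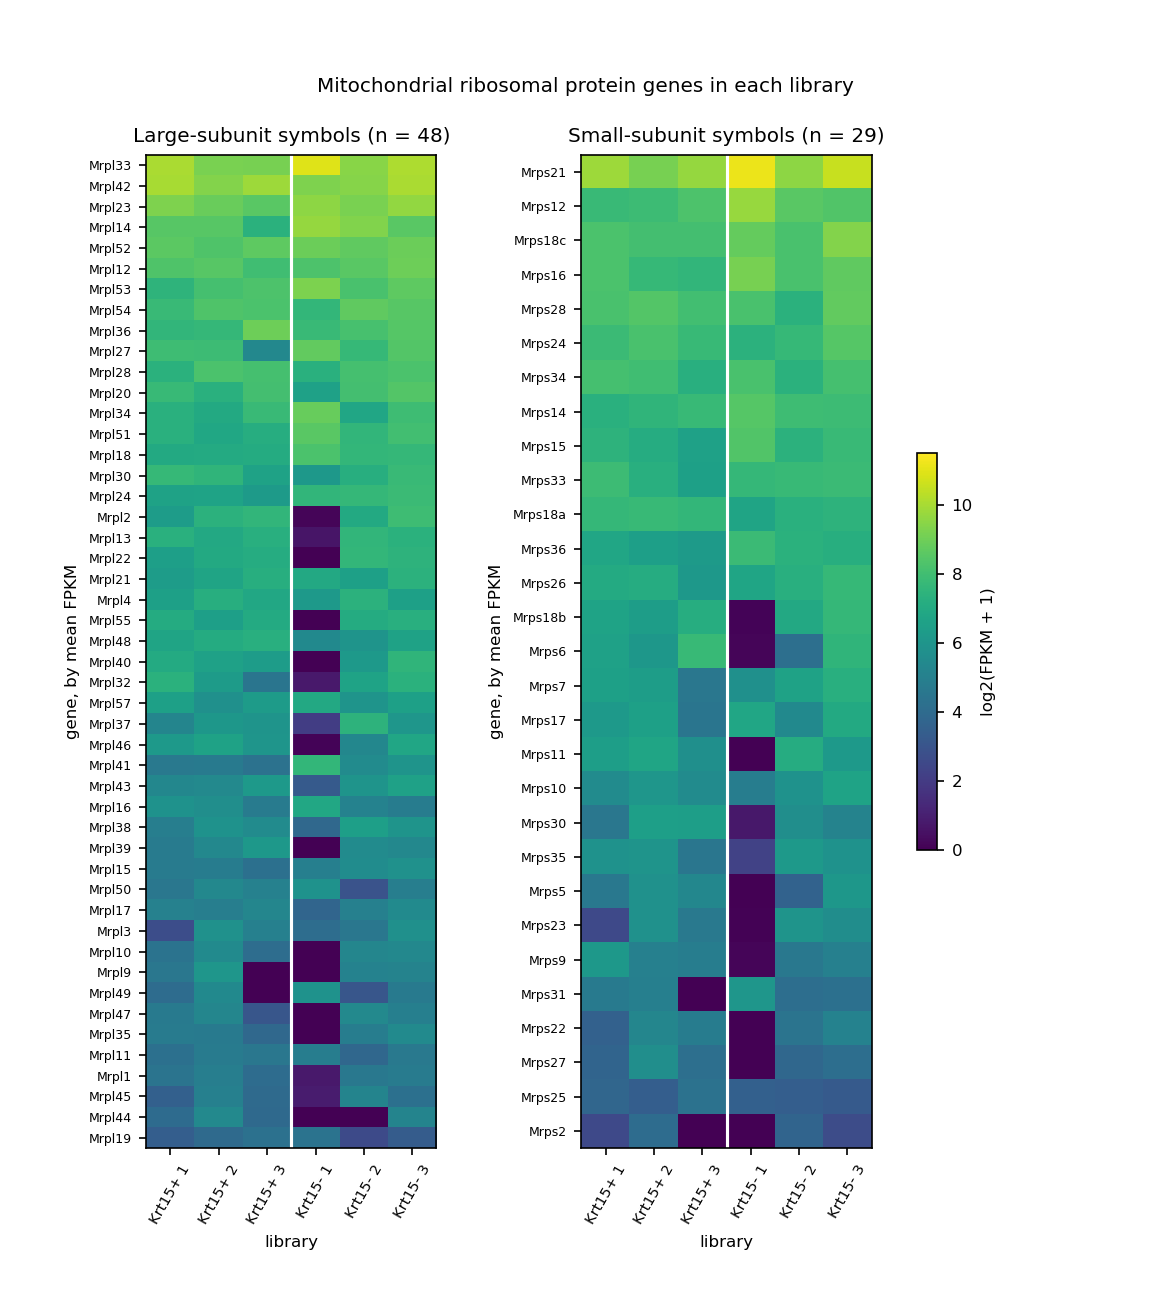
Level of each of the 77 genes in each library, as log2(FPKM + 1) on the colour scale, with rows ordered by mean FPKM and libraries in columns, Krt15+ left of Krt15-. The dark cells of the Krt15- replicate 1 column are the 25 genes under 1 FPKM there, and Mrpl33 and Mrps21 are the brightest rows at the top.

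As a set, the genes took a similar share of the summed FPKM in most libraries: 1.39%, 1.52% and 1.49% in Krt15+ replicates 1 to 3 and 1.45%, 1.59% and 1.97% in Krt15- replicates 1 to 3. The median level of the 77 was 92.3, 91.7 and 76.4 FPKM in the Krt15+ libraries and 57.5, 101 and 150.1 FPKM in the Krt15- libraries. The Krt15- libraries thus held both the lowest and the highest median. The spread of a gene within its group, as SD over mean, had a median of 30.4% in Krt15+ and 54.9% in Krt15- libraries. Between Krt15- replicates 2 and 3 alone that median was 27.1%.

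The loss of detection in Krt15- replicate 1 reached this gene set in part. There 25 of the 77 genes (32.5%) were under 1 FPKM, 13 of them listed at 0, while 66.2% of the 9423 genes tested were under 1 FPKM. In Krt15+ replicates 1 to 3 the number under 1 FPKM was 0, 0 and 4 of 77, and in Krt15- replicates 2 and 3 it was 1 and 0. The 25 genes, 15 with Mrpl and 10 with Mrps symbols, had a median level of 39.1 FPKM over the other 5 libraries, against 158 FPKM for the 52 genes that were detected. Of the 20 genes with a mean of 200 FPKM or more in the other 5 libraries, 0 were under 1 FPKM in Krt15- replicate 1, against 2.56% of 624 tested genes at that level. Of the 21 genes between 100 and 200 FPKM, 8 were under 1 FPKM there (38.1%), against 17.3% of 452 tested genes. The direction differed between levels. Between 50 and 100 FPKM it was 3 of 11 genes (27.3%), against 38.4% of 656 tested genes. Between 25 and 50 FPKM it was 9 of 15, against 54.2% of 920. Between 1 and 25 FPKM it was 5 of 10, against 80.8% of 6668. Among the 52 detected genes, 23 were at their highest level of all 6 libraries in Krt15- replicate 1.

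**Figure D2:**
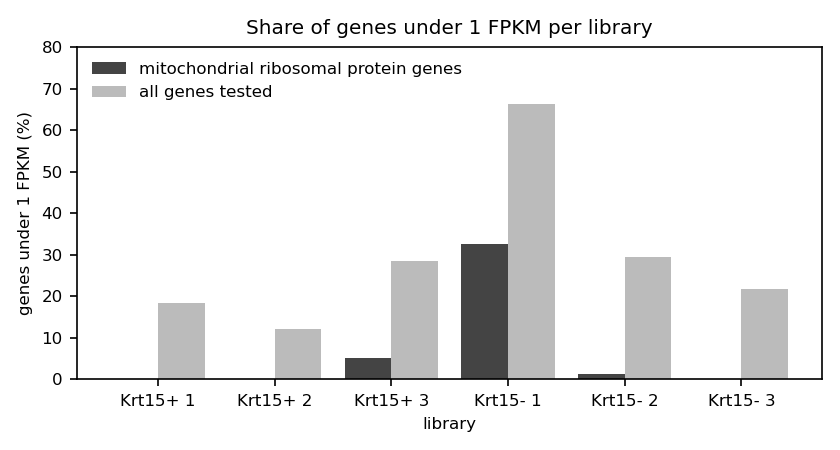
Percentage of genes under 1 FPKM in each library, for the 77 mitochondrial ribosomal protein genes and for all 9423 genes tested. The share is 32.5% of the 77 genes and 66.2% of all genes in Krt15- replicate 1, and at most 5.19% of the 77 genes in any other library.

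The most abundant genes with a listed 0 show how this looked gene by gene. Mrpl22, which lines the exit tunnel, stood at 88.4, 124 and 139.6 FPKM in Krt15+ and at 0, 197 and 171 FPKM in Krt15- libraries. Mrpl55, of the large subunit, stood at 132, 89.4 and 131 FPKM in Krt15+ and at 0, 132 and 150.1 FPKM in Krt15- libraries. Mrpl40, also of the large subunit, stood at 129, 94.4 and 81.0 FPKM in Krt15+ and at 0, 73.7 and 185 FPKM in Krt15- libraries. In each of them Krt15- replicate 1 alone was listed at 0, and Krt15- replicates 2 and 3 reached levels of the same order as the Krt15+ libraries. The same held for Mrps11, of the small-subunit platform, with 85.4, 107 and 52.5 FPKM in Krt15+ and 0, 136 and 72.9 FPKM in Krt15- libraries, and for Mrpl39, with 26.8, 40.5 and 69.6 FPKM in Krt15+ and 0, 45.4 and 40.9 FPKM in Krt15- libraries. Tbp, which encodes the TATA-binding protein that every cell uses, was also listed at 0 in Krt15- replicates 1 and 2. It stood at 8.71 to 26.1 FPKM in the Krt15+ libraries. Whether a listed 0 is a failed estimate or RNA that was not captured was not tested.

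Low values were not confined to that library. Mrpl9 was listed at 0 in Krt15+ replicate 3 as well as in Krt15- replicate 1, with 22.6 and 64.0 FPKM in Krt15+ replicates 1 and 2 and 33.5 and 34.9 FPKM in Krt15- replicates 2 and 3. Mrps31 was listed at 0 in Krt15+ replicate 3, against 25.4 and 30.5 FPKM in the other Krt15+ libraries and 65.0, 17.0 and 17.8 FPKM in the Krt15- libraries. Mrpl49 was listed at 1.50e-201 FPKM in Krt15+ replicate 3. Mrps2 was the other gene under 1 FPKM in that library.

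The comparison of Krt15+ with Krt15- cells asked whether these transcripts differ between basal cells that did and did not recombine at the Krt15-driven Cre. None of the 77 genes passed the test: 0 were called at an adjusted p below 0.05 by limma, as were 0% of the 9423 genes tested. By unadjusted p below 0.05 the count was 0 of 77 in either direction, against 3.18% of all tested genes above and 0.743% below. The smallest adjusted p among the 77 was 0.79 (limma, Benjamini-Hochberg over all genes tested), and with library weights it was 0.46, the smallest under any alternative setting. The median difference of the 77, Krt15+ minus Krt15- on the log2(FPKM + 1) scale, was 0.07, beside a median of 0.63 for all genes tested. Single differences ran between -1.78 and 2.87, with 43 of the 77 above 0, against 68.6% of all genes, and 34 (44.2%) below 0, against 31.4%. Scaling of the libraries moved this split: 24 of the 77 were below 0 with upper-quartile scaling (median 0.42), 31 with median-of-ratios scaling (median 0.19) and 41 with quantile normalization (median -0.04), where 22.6%, 28.0% and 48.2% of all genes were below 0. With the values as deposited, the median was 0.09 for the 48 large-subunit symbols and 0.07 for the 29 small-subunit symbols. Nothing in the labels shows that each library is a separate animal, and the p-values speak only of library-to-library spread, part of which may be technical.

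The differences moved with detection in Krt15- replicate 1. All 25 genes under 1 FPKM in that library had a difference above 0, with a median of 1.84, whereas the 52 genes detected there had a median of -0.31, with 34 below 0. The split uses the values of the comparison itself and is a description. Without that library the medians were -0.29 for the 25 genes and -0.48 for the 52 genes, and the values of both sets overlapped. In that fit 61 of the 77 genes (79.2%) were below 0, with a median of -0.47, while 48.7% of all 9659 genes tested were below 0, with a median of 0.03. Still 0 of the 77 were called. By unadjusted p below 0.05, 0 of the 77 lay above 0, against 1.76% of all genes, and 1 lay below 0, against 1.59%, which was Mrpl24 (difference -1.24, limma adjusted p = 0.89). Every Krt15+ library lay below the 2 remaining Krt15- libraries in 20 genes (26.0%), against 8.82% of all genes, and above them in 3 genes (3.90%), against 10.8%. Without both replicate 1 libraries, 54 of the 77 genes were below 0 with a median of -0.41, beside 0.11 for all genes.

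**Figure D3:**
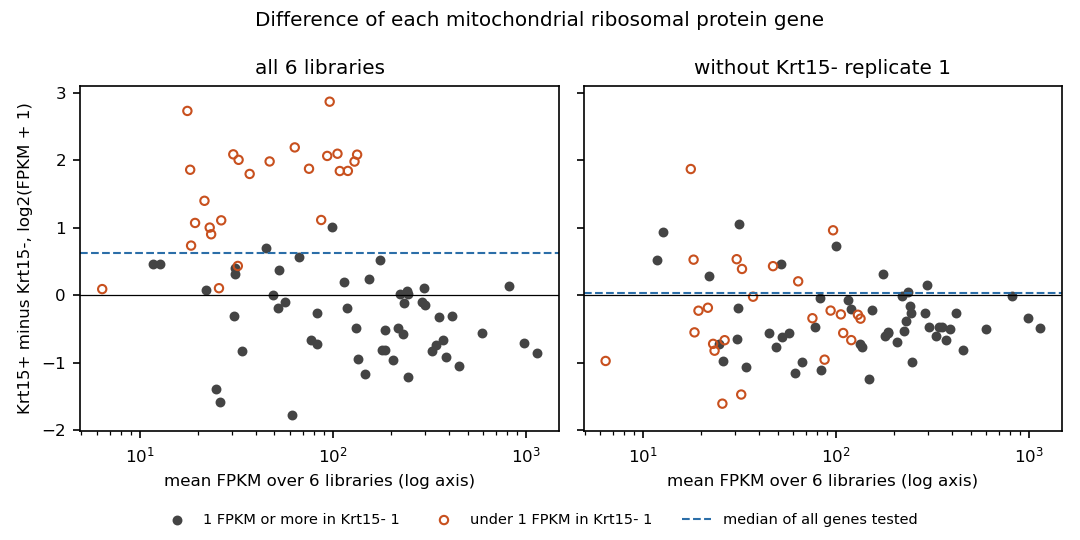
Difference of each gene, Krt15+ minus Krt15- on the log2(FPKM + 1) scale, against its mean FPKM on a log axis, with all 6 libraries (left) and without Krt15- replicate 1 (right). Open circles are the 25 genes under 1 FPKM in Krt15- replicate 1 and the dashed line is the median of all genes tested, 0.63 on the left and 0.03 on the right; the open circles lie above 0 on the left, and on the right they lie among the filled points.

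In 10 of the 77 genes (13.0%) every Krt15+ library lay below every Krt15- library, against 2.44% of all genes tested. In 2 genes (2.60%) every Krt15+ library lay above, against 8.85% of all genes. These shares depend on detection, as a gene listed at 0 in a Krt15- library cannot be lower in every Krt15+ library. In Krt15- replicate 1, 66.2% of all genes tested but 32.5% of the 77 were under 1 FPKM. All 10 genes were among the 52 detected there. With the filter at a mean of 5 FPKM, 3.56% of all genes lay below and 5.41% above. The 10 genes, none past the test, were Mrpl14, Mrpl15, Mrpl18, Mrpl24, Mrpl41, Mrpl51, Mrpl52, Mrps12, Mrps14 and Mrps36. This count depended on the scaling of the libraries. It was 6 with quantile normalization, 4 with median-of-ratios scaling and 2 with upper-quartile scaling, where 4.91%, 1.62% and 0.823% of all genes lay below in the same way.

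Mrpl41 and Mrpl24 kept their order under all 3 scalings. Mrpl41, a large-subunit protein with no bacterial counterpart, stood at 24.4, 25.8 and 19.1 FPKM in Krt15+ and at 194, 45.4 and 60.6 FPKM in Krt15- libraries. The Krt15+ libraries were close together, and Krt15- replicate 1 was far above the other Krt15- libraries. Its difference was -1.78 (SE 0.92, 95% CI -3.79 to 0.22, limma adjusted p = 0.79), and -1.16 without Krt15- replicate 1.

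Mrpl24, which lies near the tunnel exit, averaged 90.9 ± 13.7 FPKM in Krt15+ and 205 ± 21.9 FPKM in Krt15- libraries (SD, n = 3 each), with 97.5, 100 and 75.2 against 186, 201 and 229 FPKM. The gap between the groups was wider than the range within either. Its difference was -1.17 (SE 0.63, limma adjusted p = 0.79) and -1.24 without Krt15- replicate 1, so it did not rest on that library. Exons of Mrpl24 overlap those of Rrnad1 on the other strand, and the library kit does not mark strand, so reads of the 2 genes cannot be told apart there.

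Mrpl14, which sits at the face between the subunits, stood at 369, 360.5 and 162 FPKM in Krt15+ and at 814, 633 and 378 FPKM in Krt15- libraries, a difference of -1.05 (SE 0.53, limma adjusted p = 0.79). Krt15- replicate 3 was close to the highest Krt15+ library, and the exons of Mrpl14 overlap Tmem63b on the other strand. Mrps12, a protein of the decoding centre, stood at 220.4, 235 and 311 FPKM in Krt15+ and at 855, 380.2 and 336 FPKM in Krt15- libraries. The difference of -0.92 (SE 0.53, limma adjusted p = 0.79) was -0.50 without Krt15- replicate 1, the library with the highest value. Mrps21, named above, had a difference of -0.87 (SE 0.43, limma adjusted p = 0.79), and -0.49 without that library. No gene of the 77 had a smaller p than Mrps21.

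Among the other genes with no overlap, Mrpl51 and Mrpl18 were lower in each Krt15+ library without passing the test. Mrpl51, found only in mitochondrial ribosomes, stood at 155, 113 and 143 FPKM in Krt15+ and at 378, 191 and 255 FPKM in Krt15- libraries. Mrpl18, of the large subunit, stood at 125, 129 and 134 FPKM in Krt15+ and at 299, 195 and 199.6 FPKM in Krt15- libraries. The Krt15+ values of Mrpl18 lay close together, and its exons overlap those of Tcp1 on the other strand. Mrps36, whose product is now known as an adaptor protein of the 2-oxoglutarate dehydrogenase complex and not as a ribosomal protein, stood at 111, 89.9 and 76.4 FPKM in Krt15+ and at 225, 164 and 149 FPKM in Krt15- libraries. The gaps were narrow in Mrpl52, with 326 to 402 FPKM in Krt15+ and 411 to 487 FPKM in Krt15- libraries, in Mrps14, with 157 to 212 and 234 to 356 FPKM, and in Mrpl15, with 17.9 to 27.7 and 30.5 to 54.9 FPKM.

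**Figure D4:**
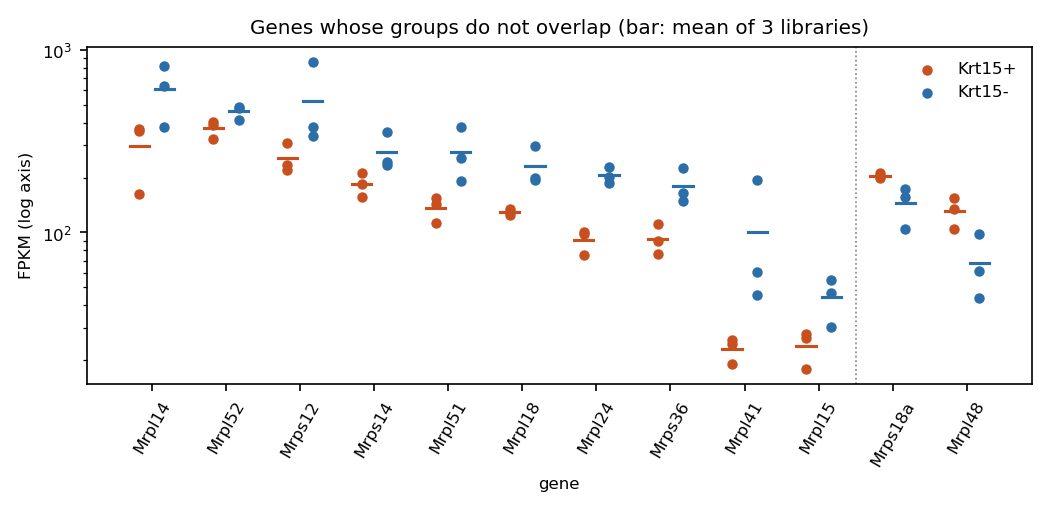
FPKM per library on a log axis for the 12 genes whose groups do not overlap, with Krt15+ left of Krt15- for each gene and the mean of 3 libraries as a bar. In the 10 genes left of the dotted line, from Mrpl14 to Mrpl15, the Krt15+ points lie below the Krt15- points, and in Mrps18a and Mrpl48 they lie above.

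On the other side, the 2 genes with every Krt15+ library above were Mrps18a and Mrpl48. Mrpl48, of the central protuberance of the large subunit, stood at 105, 134 and 154 FPKM in Krt15+ and at 43.6, 61.3 and 98.4 FPKM in Krt15- libraries. The gap between the groups was narrow, and the difference was 1.01 (SE 0.73, limma adjusted p = 0.79), or 0.73 without Krt15- replicate 1. Its exons overlap those of Rab6a on the other strand. Both genes kept this order under all 3 scalings.

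Mrps18a belongs to a family of 3 related proteins that take different places in the ribosome, Mrps18a in the large subunit and Mrps18b and Mrps18c in the small one. Mrps18a averaged 204 ± 7.05 FPKM in Krt15+ and 145 ± 36.0 FPKM in Krt15- libraries (SD, n = 3 each), a difference of 0.52 (SE 0.60, limma adjusted p = 0.82). Mrps18c stood at 304, 268 and 264 FPKM in Krt15+ and at 444, 294 and 660.2 FPKM in Krt15- libraries, a difference of -0.67 (SE 0.50, limma adjusted p = 0.79). Mrps18b stood at 101, 84.6 and 140.3 FPKM in Krt15+ and at 0.0718, 121 and 204 FPKM in Krt15- libraries. Its difference of 1.84 (SE 1.63) turned to -0.56 without Krt15- replicate 1. No one of the 3 passed the test, and the differences between them were not tested.

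The 5 genes above 0 with the smallest p were all under 1 FPKM in Krt15- replicate 1. Mrps6, of the small subunit, stood at 96.2, 67.7 and 217 FPKM in Krt15+ and at 0.102, 17.5 and 182 FPKM in Krt15- libraries (difference 2.87, SE 1.54, limma adjusted p = 0.79). The groups overlapped through Krt15- replicate 3, and without replicate 1 the difference was 0.96. Exons of Mrps6 overlap those of Slc5a3 on the same strand, which makes its level uncertain. Mrpl44, a large-subunit protein with a fold of the RNase III family, stood at 15.3, 41.7 and 14.2 FPKM in Krt15+ and at 0, 0 and 35.0 FPKM in Krt15- libraries (difference 2.73, SE 1.49, limma adjusted p = 0.79). It was 1.87 without Krt15- replicate 1, and exons of Mrpl44 overlap those of Wdfy1 on the other strand.

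Mrps9, of the small subunit, stood at 69.4, 31.2 and 28.2 FPKM in Krt15+ and at 0.103, 23.0 and 31.7 FPKM in Krt15- libraries. Mrpl46, of the central protuberance, stood at 70.6, 97.8 and 63.4 FPKM in Krt15+ and at 0.0737, 38.5 and 112 FPKM in Krt15- libraries, and its exons overlap those of Mrps11 on the other strand. Mrps30, which despite its symbol sits in the large subunit, stood at 22.8, 88.9 and 86.4 FPKM in Krt15+ and at 0.68, 50.3 and 34.1 FPKM in Krt15- libraries. Their differences of 2.09, 2.19 and 1.98 (limma adjusted p = 0.79 for each) were 0.53, 0.20 and 0.43 without Krt15- replicate 1.

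By origin the genes were placed by list, leaving aside Mrpl57, Mrps18a, Mrps18b, Mrps30 and Mrps36, and the place of single genes may be open to dispute. The 29 large-subunit genes listed with a bacterial counterpart had a median difference of 0.02, with 13 below 0. The 18 listed as found only in mitochondria had a median of 0.39, with 6 below 0. The 16 small-subunit genes listed with a bacterial counterpart had a median of -0.34, with 9 below 0. The 9 listed as found only in mitochondria had a median of 0.43, with 4 below 0. Without Krt15- replicate 1 the 4 medians were -0.48, -0.38, -0.48 and -0.55 in the same order, all below 0. Mrps27 (difference 1.86, SE 1.34) and Mrps31 (-1.58, SE 1.42) had the smallest p of the mitochondrial small-subunit class, each with a limma adjusted p of 0.79, and exons of Mrps27 overlap a gene on the other strand. Mrps27 was listed at 0 in Krt15- replicate 1, and its difference was 0.53 without that library. The difference of Mrps31 turned to 0.03 without Krt15+ replicate 3, where it was listed at 0. In the stalk that binds translation factors, the L12 homologue Mrpl12 was at 325, 366 and 254 FPKM in Krt15+ and 312, 377 and 500.1 FPKM in Krt15- libraries. Mrpl10, which anchors it, was at 19.6, 44.1 and 16.5 FPKM in Krt15+ and 0, 38.3 and 40.3 FPKM in Krt15- libraries. Mrpl12 was more abundant than Mrpl10 in each of the 6 libraries, and Mrpl11, also listed with the stalk, had a mean of 22.1 FPKM. These are transcript levels, and their relation to the copies of each protein in the ribosome was not tested.

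Promoter sequence, which the choice by symbol did not use, was searched for motifs. The RefSeq table of promoters (build GRCm38.p6, 250 bases before to 50 bases after the start) held 68 of the 77 genes. Nuclear genes for mitochondrial proteins are known targets of the factor NRF1 and of GABP, which is of the ETS family, and YY1 binds many genes of translation. The ETS core CCGGAAG, searched on both strands, was found in 25 of the 68 genes (36.8%), against 22.0% of the 7080 tested genes with a promoter and 9.93% of all 27025 genes in the table. The NRF1 motif, GCGCA and GCGC with any base N between them, was found in 13 (19.1%), against 12.6% of tested genes and 5.19% of all. The YY1 motif AAGATGGC was found in 12 (17.6%), against 5.65% of tested genes and 3.19% of all. The TATA box TATAAA was found in 5 (7.35%), against 9.01% of tested genes and 15.7% of all. The last 3 letters of the ETS core are the first 3 of the YY1 motif, so those motifs can overlap, and none of the 4 lies wholly within another. Of the 68 genes, 42 held at least 1 of the ETS, NRF1 and YY1 motifs, 26 held none of them, and 4 held both the ETS and the NRF1 motif. The median GC content of the windows was 58.0%, against 60.7% for tested genes.

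**Figure D5:**
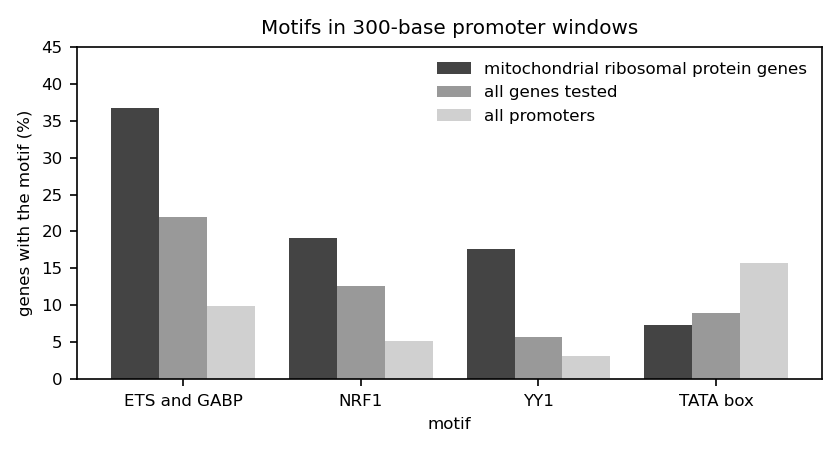
Percentage of genes whose 300-base promoter window holds each motif on either strand, for the mitochondrial ribosomal protein genes, all genes tested and all genes of the RefSeq table. The ETS, NRF1 and YY1 motifs are found in 36.8%, 19.1% and 17.6% of the 68 genes and the TATA box in 7.35%.

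Stretches of 40 bases, all before the start and read along the strand of the gene (RefSeq, GRCm38.p6), show the 3 kinds of motif in genes described above, with the motif or its reverse complement in capitals.
Mrpl51 (ETS, chr6:125192094-125192133, + strand): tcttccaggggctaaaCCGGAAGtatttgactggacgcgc
Mrpl18 (ETS, chr17:12916302-12916341, - strand): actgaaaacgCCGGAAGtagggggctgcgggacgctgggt
Mrpl48 (ETS, chr7:100583141-100583180, - strand): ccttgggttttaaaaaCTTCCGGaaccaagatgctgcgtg
Mrps18a (ETS, chr17:46110962-46111001, + strand): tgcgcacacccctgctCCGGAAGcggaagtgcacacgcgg
Mrps21 (NRF1, chr3:95871581-95871620, - strand): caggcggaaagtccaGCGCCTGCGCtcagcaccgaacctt
Mrpl39 (NRF1, chr16:84735345-84735384, - strand): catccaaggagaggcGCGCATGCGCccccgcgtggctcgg
Mrpl44 (NRF1, chr1:79775968-79776007, + strand): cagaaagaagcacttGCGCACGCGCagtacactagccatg
Mrps12 (YY1, chr7:28741997-28742036, - strand): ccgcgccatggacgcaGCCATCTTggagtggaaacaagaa
Mrps11 (YY1, chr7:78783008-78783047, + strand): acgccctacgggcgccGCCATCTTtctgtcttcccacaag

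Among genes with a promoter in the table, the ETS motif was in 4 of the 9 whose Krt15+ libraries all lay below (Mrpl18, Mrpl51, Mrpl52 and Mrps12), in both genes whose Krt15+ libraries all lay above (Mrpl48 and Mrps18a) and in 19 of the 57 whose groups overlapped. The median difference was -0.31 for the 25 genes with the ETS motif and 0.14 for the other 43 genes, and the median of the mean levels was 175 FPKM with and 67.0 FPKM without it. For the NRF1 motif the median difference was 0.23 with and 0.02 without it, and for YY1 0.33 with and 0.02 without it. These are descriptions of letters in a window of a build other than the one named by the submitters, and no test was made of them.

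Other genes of mitochondrial translation were read from lists of known roles. In a list of mitochondrial ribosomal proteins with other names, which also holds Mrpl57, 0 of 7 tested were called and 4 were below 0, with Chchd1 and Dap3 of smallest p. Chchd1 averaged 317 ± 55.3 FPKM in Krt15+ and 524 ± 168 FPKM in Krt15- libraries (SD, n = 3 each), a difference of -0.69 (SE 0.47, limma adjusted p = 0.79) with no overlap. Dap3 stood at 13.8, 19.7 and 16.3 FPKM in Krt15+ and at 0.0075, 22.3 and 15.6 FPKM in Krt15- libraries, and its difference of 1.25 turned to -0.17 without Krt15- replicate 1. Of 13 translation factors tested, 0 were called and 4 were below 0, with a median of 0.32. Without Krt15- replicate 1, 12 of 13 were below 0 and the median was -0.44. Mtfmt, which formylates the initiator methionine, stood at 2.82, 0.51 and 0 FPKM in Krt15+ and at 0.0692, 23.3 and 4.66 FPKM in Krt15- libraries. Mtrf1l, a release factor, stood at 0, 6.57 and 19.6 FPKM in Krt15+ and at 0.0133, 0 and 7.30 FPKM in Krt15- libraries.

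Of 23 assembly factors tested, 0 were called and 16 were above 0, with a median of 0.74 beside 0.63 for all genes, and 1, Mterfd1, was above 0 at an unadjusted p below 0.05, against 3.18% of all genes. Without Krt15- replicate 1 the direction turned, with a median of -0.42 and 13 of 24 below 0. In that fit 1 was above and 2 were below 0 at an unadjusted p below 0.05, against 1.76% and 1.59% of all genes. Mterfd1 (now Mterf3), a protein of the MTERF family needed for mitoribosome assembly in mice, stood at 35.8, 41.9 and 31.3 FPKM in Krt15+ and at 0, 2.49 and 15.9 FPKM in Krt15- libraries. The groups did not overlap, and the difference was 3.25 (SE 1.24, limma adjusted p = 0.79), or 2.27 without Krt15- replicate 1 and 1.75 with library weights. Mterfd2 (now Mterf4), a partner of the ribosomal RNA methylase Nsun4, stood at 2.33, 4.11 and 1.40 FPKM in Krt15+ and at 0, 0 and 0.271 FPKM in Krt15- libraries, also without overlap (difference 1.67, SE 0.83, limma adjusted p = 0.79). Its difference was 0.57 at a pseudocount of 5 FPKM and 0.89 after quantile normalization. Of the 23 assembly factors, 3 were higher without overlap, against 8.85% of all genes, and 1 was lower, against 2.44%. Gtpbp10 was the other higher gene. Mtg2 went the other way, with 1.79 to 17.5 FPKM in Krt15+ and 20.2 to 42.8 FPKM in Krt15- libraries (difference -1.81, SE 1.12, limma adjusted p = 0.79). Of 16 genes of mitochondrial DNA maintenance and expression tested, 0 were called and 6 were below 0, with a median of 0.44. Without Krt15- replicate 1 the direction turned, with 9 of 16 below 0 and a median of -0.09. Those of smallest p were Mterf1a and Mterf1b, near-identical copies between which the authors' estimate may have split reads (differences 1.95, SE 1.26, and 2.56, SE 1.19, limma adjusted p = 0.79 each).

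Of 11 listed regulators of mitochondrial gene expression 8 were tested, and 0 were called. Of the 8, 7 were above 0, against 68.6% of all genes. Their median was 1.54, beside 0.63 for all genes, and 0.89 without Krt15- replicate 1, beside 0.03. Apart from Myc, their mean levels were low, at 1.42 to 6.85 FPKM. In 1 of the 8 every Krt15+ library lay above every Krt15- library, against 8.85% of all genes. Nrf1, the factor behind the motif named above, stood at 5.28, 10.3 and 13.3 FPKM in Krt15+ and at 0, 0.0197 and 8.63 FPKM in Krt15- libraries. Pprc1, a coactivator of that factor, stood at 1.17, 4.0 and 2.91 FPKM in Krt15+ and at 0.0129, 0.439 and 0 FPKM in Krt15- libraries, without overlap. Their differences of 2.23 (SE 1.24) and 1.62 (SE 0.85) did not pass the test (limma adjusted p = 0.79 each). Their size depended on the setting: Nrf1 had 0.68 with library weights and 1.28 with quantile normalization, and Pprc1 had 0.56 at a pseudocount of 5 FPKM and 0.01 after quantile normalization.

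Cytosolic ribosomal proteins, which build the ribosome outside mitochondria, are set beside the 77 genes as the nearest family by function. With all 6 libraries 34 of the 77 mitochondrial genes (44.2%) and 73 of 78 cytosolic genes tested (93.6%) were below 0, with medians of 0.07 and -0.47. Of all genes tested, 31.4% were below 0. Without Krt15- replicate 1, 61 of 77 mitochondrial genes and 52 of 78 cytosolic genes were below 0, against 48.7% of all genes. The medians of the families were then -0.47 and -0.08. Without both replicate 1 libraries 54 and 63 genes were below 0, against 45.8% of all genes, with medians of -0.41 and -0.21. The counts are descriptions, they share libraries, and the difference between the families was not tested.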

How the data were processed

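RNA-seq values of 6 libraries were analysed. The SMART-Seq v4 kit was applied to sorted cells with no RNA extraction step, per the labels' protocols. The deposited table holds FPKM values as the authors estimated them. The tools Cufflinks 2.2.1, STAR 2.5 and DESeq2 and the build mm9 are named, per the submitters' processing notes, without their roles; annotation and read filters are not given in the sources. FPKM shares reads among isoforms and similar genes, so values of overlapping genes are uncertain; exons of 22 of the 77 genes overlap another gene in GENCODE M21.

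Of 24043 rows, 27 with a date in place of a symbol were left out. Depth was estimated from the single-fragment step of FPKM times length in 2172 single-transcript genes of at least 1500 bp (step within 7%) and is approximate; no counting intervals are given. The 9423 genes averaging 1 FPKM or more were tested on log2(FPKM + 1) with limma 3.58.1 in R 4.3.3 (variance trend, group as the only term, Benjamini-Hochberg, threshold 0.05). The procedure was also run on simulated data with the same noise for every gene and no loss of detection. That run does not show how it performs on libraries like these. This scale shrinks the differences of weakly expressed genes. Named genes were the 5 of highest mean, the 5 of smallest p on each side of 0, the 5 of highest mean with a listed 0, the Mrps18 family and the 2 of smallest p of each list; others were added for having no overlap between groups or for low values, after these were seen. The genes and lists were chosen with earlier results of these data known. Alternatives changed the pseudocount, filter, scaling (median of ratios over genes that reached 1 FPKM in every library), weights, block and libraries.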

Additional observations from a re-analysis of the deposited data

How the results depend on the processing

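With all 6 libraries limma called 0 genes at an adjusted p below 0.05, 0 of the 77 were below an unadjusted p of 0.05, and 0 of the 77 were called under any of the 18 alternatives. Of all genes, 8 were called with library weights and 1 without Krt15- replicate 2. At an unadjusted p below 0.05, the genes lower in Krt15+ numbered 5 with no filter, 1 with quantile normalization, 4 with library weights, 2 and 1 without both libraries of replicate 1 or 2, and 0 to 2 when 1 library was left out. Those higher in Krt15+ numbered 1 with no filter, 1 without both replicate 3 libraries and 0 to 4 when 1 library was left out. Without both replicate 1 libraries, 120 of all 9430 genes tested were lower and 135 higher at that threshold. For most of the other settings, the replicate block among them, the share of all genes was not taken. The counts are therefore not read as a result about the 77. The replicate block gave 3 lower and 1 higher, with 0 called. Same-numbered Krt15+ and Krt15- libraries share a sample code in the labels, which do not say whether it marks an animal or a batch. Their deviations from the group means correlated at 0.128, 0.168 and 0.00886 for replicates 1 to 3. Differently numbered pairs correlated at -0.164 to 0.0286. Whether the libraries are paired is therefore not known, and every count elsewhere is without the block. The median difference of the 77 lay between -0.47 and 0.36 when 1 library was left out. It was 0.42, 0.19 and -0.04 under upper-quartile, median-of-ratios and quantile scaling, with 24, 31 and 41 genes below 0. It was -0.36 with library weights. Without both replicate 1 libraries 54 genes were below 0, with library weights 60, and the count was 30 to 61 when 1 library was left out. The genes lower without overlap numbered 2, 4 and 6 under upper-quartile, median-of-ratios and quantile scaling, where 0.823%, 1.62% and 4.91% of all genes were lower in this way, and 10 to 21 when 1 library was left out (3.83% to 8.82% of all genes). They numbered 27, 24 and 12 without both libraries of replicate 1, 2 or 3 (12.2%, 9.67% and 6.46% of all genes). Those higher without overlap numbered 2 to 9 when 1 library was left out (10.8% to 19.2% of all genes), and 6, 4 and 10 without both libraries of replicate 1, 2 or 3 (19.1%, 22.2% and 27.4% of all genes); fewer libraries separate more easily by construction. Of 44 named genes under the 18 alternatives, 29 values changed sign, and the cause was not tested. With library weights these were Mrpl42 (-0.17), Mrpl22 (-0.23), Mrpl40 (-0.21), Mrps18b (-0.44), Mtrf1l (-0.26) and Mrpl10 (-0.36). With upper-quartile scaling they were Mrpl12 (0.08), Ppia (0.02) and Mrpl52 (0.09), and with quantile normalization Ppia (0.05). Without Krt15- replicate 1 they were Mrpl42 (-0.02), Mrpl22 (-0.67), Mrpl55 (-0.29), Mrpl40 (-0.23), Mrps11 (-0.34), Mrpl39 (-0.02), Mrps18b (-0.56), Dap3 (-0.17) and Mrpl10 (-0.67). Without both replicate 1 libraries they were Mrpl42 (-0.15), Mrpl22 (-0.48), Mrpl55 (-0.38), Mrpl40 (-0.41), Mrps11 (-0.41), Mrps18b (-0.53), Dap3 (-0.06) and Mrpl10 (-0.52). Mrps31 was 0.03 without Krt15+ replicate 3 and Mrpl12 0.01 without both replicate 3 libraries. When 1 library was left out, the differences ranged between -0.02 and 0.36 for Mrpl42, -0.67 and 3.15 for Mrpl22, -0.29 and 3.33 for Mrpl55, -0.23 and 3.54 for Mrpl40, -0.34 and 3.20 for Mrps11, -0.02 and 2.74 for Mrpl39, -0.56 and 3.23 for Mrps18b, -0.17 and 2.09 for Dap3, -2.45 and 0.03 for Mrps31, and -0.67 and 2.02 for Mrpl10. The median of all genes was 0.63, and 0.87, 0.73 and 0.04 under the 3 scalings, so directions are relative to that shift.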
